A study of Mus musculus with 6 samples.

Results

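The genes described here are the mouse genes listed with a symbol from Zfp900 to Zfp999, together with BC052688, a non-coding gene on chromosome 13. Among the 24288 gene symbols of the expression table, 54 met this rule, of which 53 carry a Zfp symbol. The Zfp genes were chosen by symbol with the normalised reads of the WT and DKO libraries already known, and BC052688 was selected on its rise in those same reads, so for these genes the counts of calls below describe how large the differences were and are no independent evidence of a change. A symbol with several entries in the table is represented by the entry with the highest total. Of the 54 genes, 49 had enough reads to be included in the fit over all genes.

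Most Zfp genes of this number range code for C2H2 zinc finger proteins, in which a string of small zinc-binding modules reads DNA sequence. Many of them also carry a KRAB domain, which recruits the co-repressor Trim28 and, through it, the histone methyltransferase Setdb1 and heterochromatin proteins. KRAB zinc finger genes lie in clusters of recent duplicates, are well expressed in mouse embryonic stem cells (ESCs), and are best known for silencing endogenous retroviruses and other transposable elements there.

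RNA was measured in day 2 epiblast-like cells (EpiLCs), which are ESCs carried for 48 h in N2B27 medium with Fgf2 at 12 ng/ml, Activin A at 20 ng/ml and 1% KSR, and which resemble the early post-implantation epiblast. The wild-type (WT) group was the CCE line of strain 129/Sv//Ev. The Smad2/3 double knockout (DKO) group was clone KT15.1F6 of the same labelled strain, in which Smad2 is inactivated by a targeted allele and the first exon of Smad3 was deleted with CRISPR/Cas9. Smad2 and Smad3 carry the Activin and Nodal signal to the nucleus. Each group consisted of 3 independent differentiations of 1 line, so a difference between the lines cannot be told apart from an effect of the knockout. In bulk RNA, fewer cells of a type and less RNA per cell cannot be told apart either.

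Smad3 fell from 799, 846 and 873 normalised reads in WT to 21.5, 30.5 and 18.7 in DKO libraries (limma, adjusted p = 4.40e-23), and the fitted log2 difference was -5.12 ± 0.13 (SE). Smad2 reads were still counted, at 4520 ± 86.3 (SD, n = 3) in WT and 5062 ± 109 in DKO, so the gene-body count of Smad2 did not check the label. Libraries held 57644143 to 63046034 reads after removal of duplicates, summed over 1 entry per gene symbol. All 5 listed markers of epiblast-like cells were detected, with a summed level of 102928 to 106638 in WT and 94730 to 95940 in DKO libraries. The summed level of 5 trophoblast markers was 369 to 411 in WT and 959 to 1075 in DKO, that of 6 fibroblast markers was 1574 to 1653 and 475 to 521, and that of 5 extra-embryonic endoderm markers was 52.6 to 82.1 and 83.4 to 94.3. The sums hide single markers. Under the rule given below, 2 of the 5 epiblast-like and 2 of the 6 fibroblast markers were called lower in DKO. Of the trophoblast markers 4 of 5, and of the extra-embryonic endoderm markers 1 of 5, were called higher. Over all genes 15.4% were called either way. No marker was at 0 in every library, and the part of these cells in the values below was not tested.

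Values are normalised reads, that is, reads counted over a gene body after scaling each library by its size factor, and they are not corrected for gene length unless given per kilobase. A gene was called changed when limma gave a Benjamini-Hochberg adjusted p under 0.05 over all rows and a fold change over 1.5, which is 0.58 on the log2 scale. Log2 fold changes compare DKO with WT, are on the scale of log2(normalised reads + 1), and carry the SE of the fit. Under this rule 5 of the 49 genes (10.2%) were called, 3 higher and 2 lower in DKO, beside 15.4% of the 17038 genes tested (7.34% higher and 8.03% lower). Without BC052688, which is in the set for its rise, 4 of 48 (8.33%) were called, and of 322 other Zfp genes 23 (7.14%) were called. The median log2 fold change of the 49 genes was 0.02, that of all genes 0.00012 and that of the other Zfp genes 0.01. The median size of the change, whatever its sign, was 0.15 in the set, 0.13 in the other Zfp genes and 0.19 over all genes. Of the 49 genes, 26 had a positive and 23 a negative value, and 31 (63.3%) lay within 1.2-fold of WT, beside 60.4% of all genes.

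Replicates were close, so small differences were resolved. The median coefficient of variation over the 49 genes was 3.83% in WT and 3.63% in DKO libraries, beside 4.50% over all genes in each. By the adjusted p alone 30 genes were called (16 higher and 14 lower), or 61.2% beside 53.6% of all genes. The 3 WT and 3 DKO values did not overlap in 31 genes (17 higher and 14 lower in DKO), or 63.3% beside 59.0% of all genes. Among the 18 genes whose values overlapped, no log2 fold change was larger than 0.26.

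**Figure D1:**
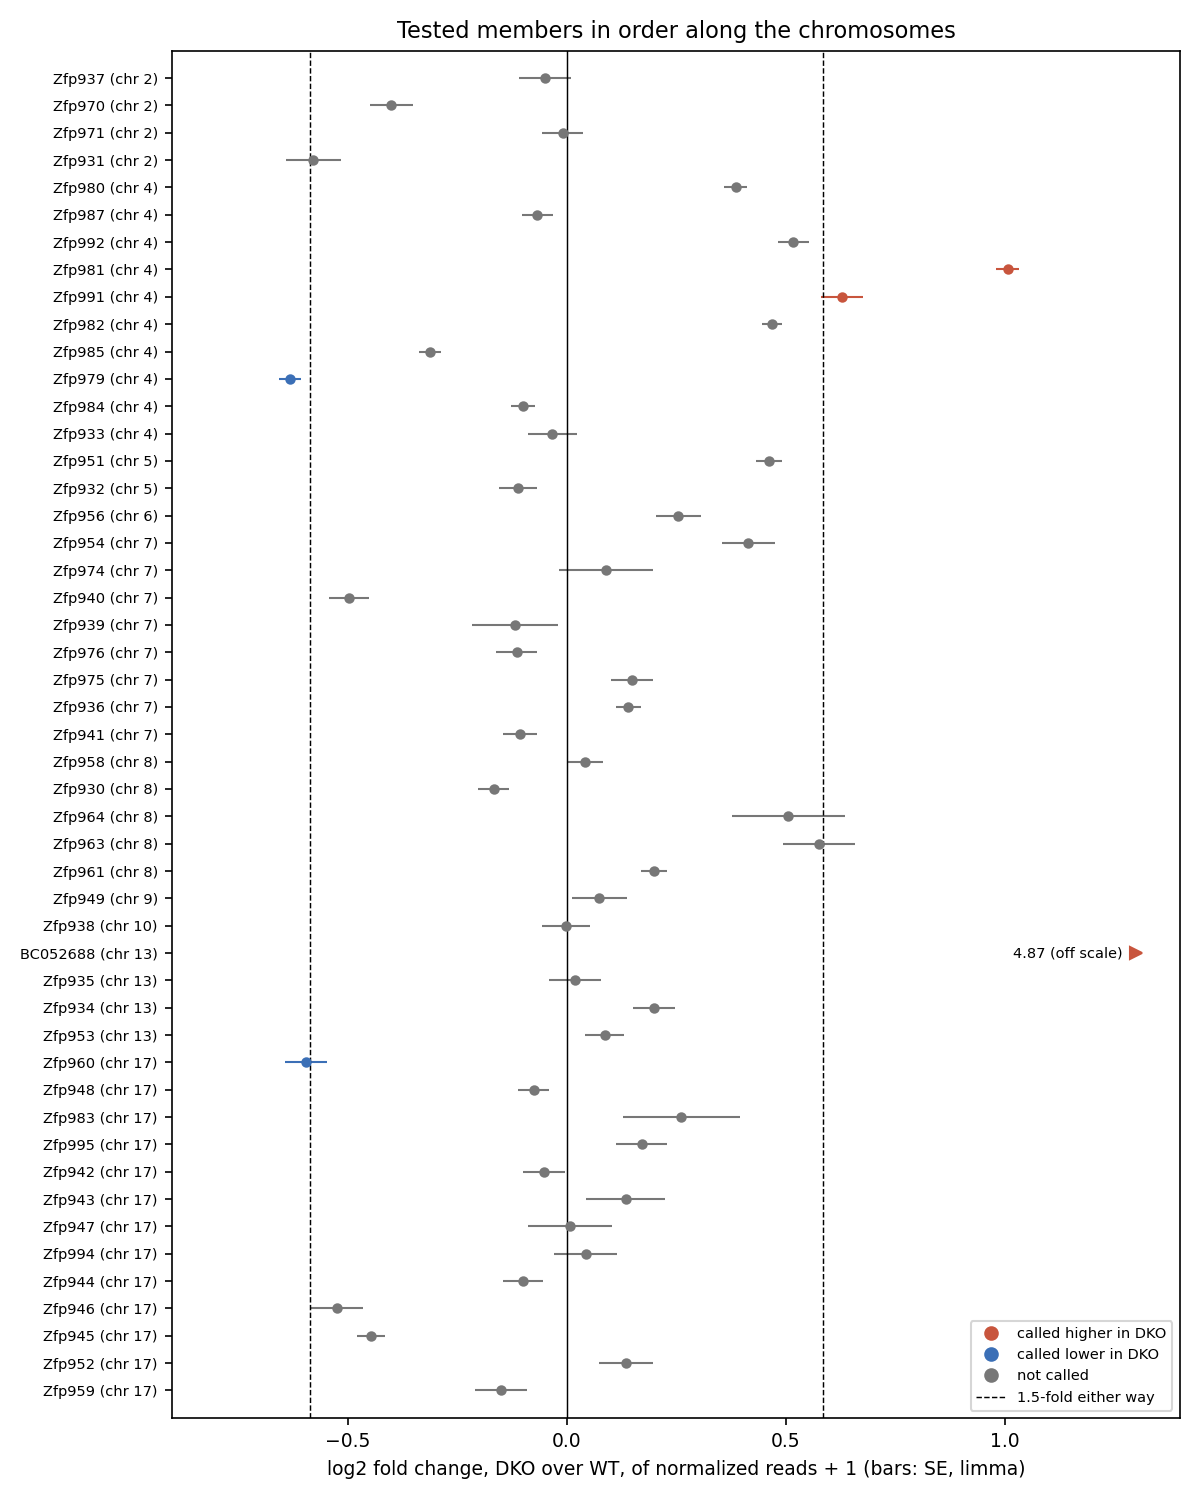
Log2 fold change of DKO over WT (x axis, points, with the SE of the limma fit as bars) for the 49 tested genes, ordered from top to bottom along the chromosomes. Dashed lines mark a 1.5-fold change either way; 5 genes lie beyond them, and BC052688 at 4.87 is off the scale.

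BC052688 showed the largest difference of the set. It lies at chr13:61771580-61787282 (GRCm38.p6, RefSeq) and is annotated as a transcribed pseudogene, from which no protein is expected. It stood at 18.8, 18.8 and 19.7 normalised reads in WT and at 610, 598 and 551 in DKO libraries. All 3 DKO values were thus far above all 3 WT values, with a log2 fold change of 4.87 ± 0.11. Per kilobase of RefSeq gene span its level rose from 1.22, the lowest of the 49 genes in WT, to 37.3, which is near the DKO median of 42.4. No GENCODE gene overlaps it. The 4 genes that end within 500 kb before it held at most 13 reads in any library. The next gene after it, the zinc finger gene Zfp808 at 343 kb, stood at 3157 ± 64.1 in WT and 3508 ± 58.2 in DKO (log2 fold change 0.15 ± 0.03). The other 2 genes of the set in that stretch, Zfp935 and Zfp934, had log2 fold changes of 0.02 ± 0.06 and 0.20 ± 0.05.

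The remaining called genes were all of the Zfp series, and 3 of the 4 lay in a cluster near the end of chromosome 4. Mouse ESCs lacking zinc finger genes of this cluster are known to express endogenous retroviruses that are otherwise silent. Zfp981 rose from 8501, 8956 and 8740 normalised reads in WT to 17032, 17894 and 17729 in DKO, with no overlap, a log2 fold change of 1.01 ± 0.03 and a ratio of means of 2.01. Zfp991 (chr4:147132093-147180579) rose from 730, 722 and 738 to 1047, 1170 and 1172 (0.63 ± 0.05). Zfp979 (chr4:147611936-147642508) went the other way, from 14337, 14973 and 14286 in WT to 9184, 9527 and 9427 in DKO (-0.63 ± 0.03).

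Zfp960 on chromosome 17 (chr17:17064103-17089631) was the last called gene, with 1087, 1171 and 1181 normalised reads in WT and 743, 804 and 730 in DKO. Its groups did not overlap, and its log2 fold change of -0.59 ± 0.05 lay just past the threshold. The call was lost when WT replicate 2 (-0.58), WT replicate 3 (-0.57), DKO replicate 1 (-0.58) or DKO replicate 3 (-0.57) was left out. The genes nearest to the threshold on its outer side were Zfp931 at -0.58 ± 0.06 and Zfp946 at -0.52 ± 0.06 among the lower ones, and Zfp963 at 0.58 ± 0.08 and Zfp992 at 0.52 ± 0.04 among the higher ones. On its inner side stood Zfp960 and Zfp979, and Zfp991 and Zfp981.

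**Figure D2:**
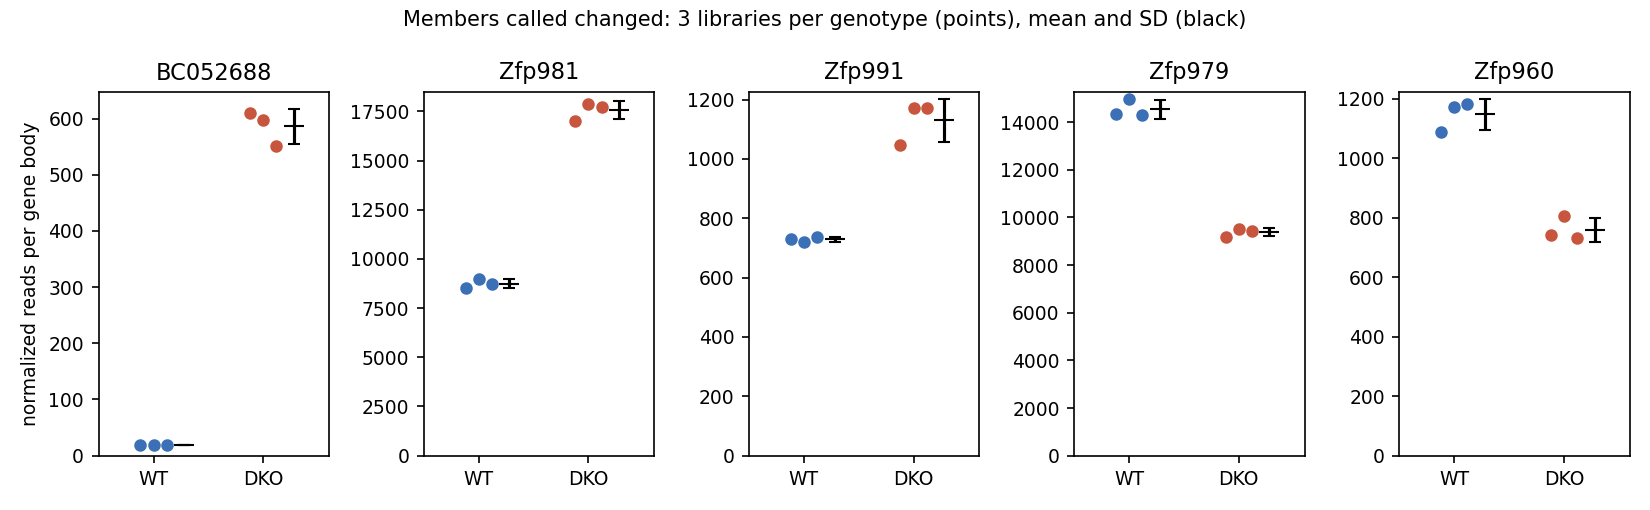
Normalised reads per gene body (y axis, linear from 0) of the 5 called genes in 3 WT and 3 DKO libraries (points), with the mean and SD in black. In every panel the 3 DKO values lie on 1 side of the 3 WT values, from 586 against 19.1 on average for BC052688 to 759 against 1146 for Zfp960.

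The zinc finger genes of chromosome 4 carried most of the RNA of the set. The 10 genes there took 66.0% of the reads of the 54 genes in WT and 69.4% in DKO libraries. Their share of all reads, summed over 1 entry per gene symbol, was 0.259% ± 0.00485 (SD, n = 3) in WT and 0.305% ± 0.00722 in DKO. The 44 genes on other chromosomes took 0.133% ± 0.00230 and 0.135% ± 0.00112. In normalised reads, the summed level of the 10 genes was 1.18 times as high in DKO as in WT, and that of the other 44 was 1.02 times as high. Zfp982 alone accounted for 23.1% of the reads of the set in WT and 28.4% in DKO, and Zfp981 for 6.82% and 12.2%.

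Per kilobase of RefSeq gene span, WT levels were highest in Zfp979 (475), Zfp985 (429) and Zfp982 (405), followed by Zfp961 on chromosome 8 (256) and by Zfp981 (234). In DKO libraries the order was Zfp982 (560), Zfp981 (469), Zfp985 (345), Zfp979 (307) and Zfp961 (293). On this scale Zfp979 led the set in WT and stood below Zfp985 in DKO, while Zfp981 moved from below Zfp961 to just below Zfp982. The median of the 49 genes was 47.2 in WT. A gene body is taken to include its introns, so such a level is not a level of mature mRNA.

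**Figure D3:**
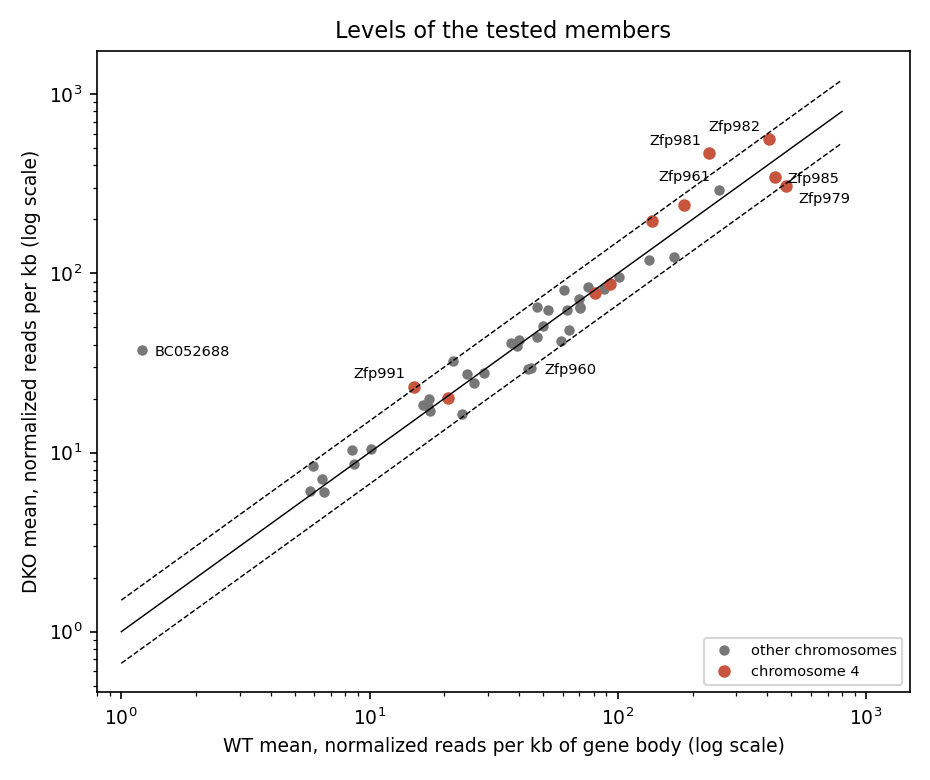
Mean normalised reads per kilobase of gene body, taken as the RefSeq gene span, in WT (x axis) and DKO (y axis). Both axes are log scales, and the 49 tested genes are shown, with those of chromosome 4 in red. The solid line marks equal levels and the dashed lines 1.5-fold; Zfp982, Zfp981, Zfp985 and Zfp979 lie at the upper end, and BC052688 stands apart at 1.22 and 37.3.

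Along chromosome 4 the 10 genes fell into 2 stretches, chr4:145670697-146539395 and chr4:147132093-147849126, in which zinc finger genes, counted by symbol, lie at most 500 kb apart. The gap between the stretches was 593 kb and holds Rex2, a zinc finger gene whose symbol was not counted (0.10 ± 0.03). With Rex2 counted, an alternative added after seeing the data, both stretches joined into 1. Zfp600, Zfp992, Zfp981, Rex2, Zfp991 and Zfp982 then formed a run of 6 positive genes from 0.10 to 1.01. Without Rex2, the run on this chromosome held only Zfp600, Zfp992 and Zfp981, from 0.20 to 1.01. Of the 10, 5 had a positive and 5 a negative log2 fold change. In the first stretch Zfp980 stood at 6164, 6410 and 6160 normalised reads in WT and 7979, 8226 and 8278 in DKO (0.39 ± 0.03), a difference under 1.5-fold with no overlap. Zfp987 stood at 2312, 2491 and 2347 in WT and 2201, 2272 and 2353 in DKO, and its groups overlapped. Then came Zfp600, a zinc finger gene outside the number range (0.20 ± 0.03), Zfp992 and Zfp981. Zfp992 had 2822, 2909 and 2666 normalised reads in WT and 3802, 4046 and 4169 in DKO, with no overlap.

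In the second stretch the sign changed between neighbours. Zfp991 was followed by Zfp982, the gene with the most reads of the set, which stood at 29085, 30079 and 29411 in WT and 39799, 41326 and 41527 in DKO (0.47 ± 0.02). The next gene, Zfp985, was lower in DKO, with 10918, 11014 and 11147 normalised reads against 13560, 14144 and 13351 in WT (-0.31 ± 0.02). Zfp979 came next, and then Zfp534, a zinc finger gene outside the number range that was higher in DKO (0.27 ± 0.03). The stretch ended with Zfp984 (-0.10 ± 0.03) and Zfp933 (-0.03 ± 0.06), both within 1.2-fold of WT. Thus the called rise of Zfp991 and the called fall of Zfp979 lay in 1 stretch of 0.717 Mb, with Zfp982 and Zfp985 between them.

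**Figure D4:**
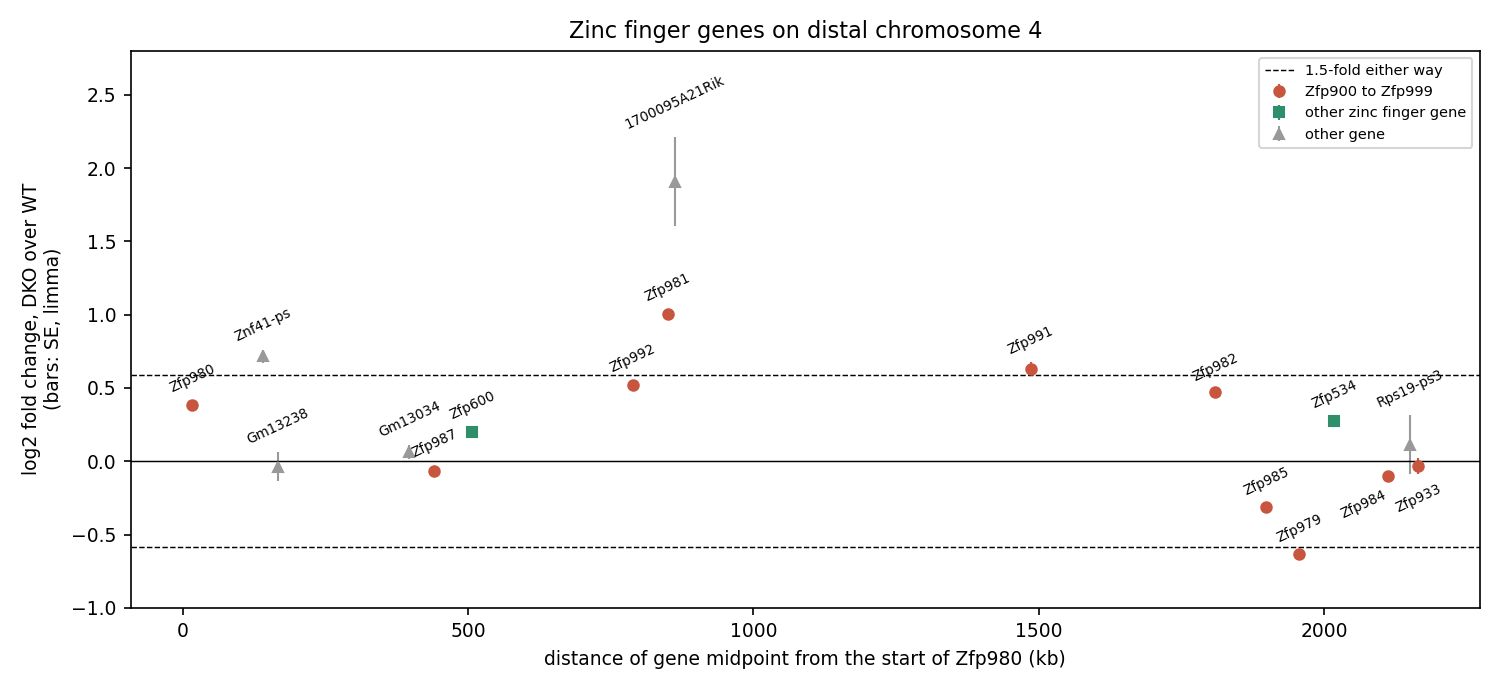
Log2 fold change of DKO over WT (y axis, with SE) of the tested genes in both zinc finger stretches of chromosome 4, against the distance of each gene's midpoint from the start of Zfp980 (x axis, kb). Zfp981 is highest among the Zfp genes at 1.01, and Zfp985 and Zfp979 lie below 0 next to Zfp982 at 0.47.

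Of the chromosome 4 genes, 7 have a promoter window alike in sequence, and the sequences are shown because genes that share them differed in opposite directions. RefSeq promoter windows (GRCm38.p6) hold 250 bases before and 50 bases after a start. Of the 54 genes 48 have such a window, and of the 10 on chromosome 4, 8 have one. In 7 of these (Zfp980, Zfp987, Zfp981, Zfp982, Zfp985, Zfp979 and Zfp984) the windows aligned over at least 200 bases with 80.2% to 93.7% identity in all 21 pairs (median 88.4%). Zfp982 has 3 windows, of which only an inner one is alike, and that at its annotated start aligned with none of the others. In 12 of the 21 pairs the log2 fold changes had opposite signs. These pairs all come from the same 7 genes, so they are not separate observations. Some rest on small values, those of Zfp987 (-0.07 ± 0.04, groups overlapping) and Zfp984 (-0.10 ± 0.03). The windows of Zfp981 and Zfp979 were 86.3% identical, those of Zfp982 and Zfp979 91.7%, and those of Zfp987 and Zfp985 93.7%, the closest pair.

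The 250 bases before the start are given for 4 of them, 5′ to 3′ on the strand of the gene: Zfp981 (chr4:146514670-146514919, + strand, an inner start of the gene, called higher), Zfp982 (chr4:147492167-147492416, + strand, also an inner start), Zfp979 (chr4:147642509-147642758, − strand, called lower) and Zfp987 (chr4:146097062-146097311, + strand, groups overlapping). Capitals mark the 10 bases TTGGGCGGGT, the stretch with a GC box that was found in more genes of the set than any other such stretch, a choice made after the sequences had been seen.
Zfp981: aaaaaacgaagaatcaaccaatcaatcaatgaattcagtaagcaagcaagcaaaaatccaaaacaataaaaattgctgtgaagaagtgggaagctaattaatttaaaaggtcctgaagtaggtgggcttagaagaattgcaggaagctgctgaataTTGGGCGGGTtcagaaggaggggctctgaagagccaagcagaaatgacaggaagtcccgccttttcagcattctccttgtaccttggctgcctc
Zfp982: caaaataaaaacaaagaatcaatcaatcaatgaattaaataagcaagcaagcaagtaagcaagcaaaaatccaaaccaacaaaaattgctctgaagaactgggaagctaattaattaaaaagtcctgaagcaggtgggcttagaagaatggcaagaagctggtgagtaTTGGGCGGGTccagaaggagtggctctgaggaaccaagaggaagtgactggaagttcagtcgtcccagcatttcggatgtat
Zfp979: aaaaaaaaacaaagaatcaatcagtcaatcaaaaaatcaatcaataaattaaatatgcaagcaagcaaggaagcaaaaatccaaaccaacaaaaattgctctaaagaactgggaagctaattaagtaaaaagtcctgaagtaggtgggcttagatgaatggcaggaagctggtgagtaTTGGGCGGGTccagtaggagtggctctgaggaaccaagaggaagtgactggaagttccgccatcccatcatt
Zfp987: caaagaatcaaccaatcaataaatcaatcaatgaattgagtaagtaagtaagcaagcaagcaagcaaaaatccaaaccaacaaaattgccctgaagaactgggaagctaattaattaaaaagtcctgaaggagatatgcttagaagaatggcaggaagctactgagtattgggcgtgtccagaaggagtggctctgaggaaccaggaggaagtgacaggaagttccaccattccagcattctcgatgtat

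On either strand, TTGGGCGGGT was found in 27 of 32851 promoter windows (0.0822%), or in 26 of 27025 genes (0.0962%), and in 9 of the 48 genes of the set with a window (18.8%). These were Zfp979, Zfp980, Zfp981, Zfp982, Zfp984 and Zfp985 on chromosome 4 and Zfp945, Zfp947 and Zfp994 on chromosome 17. Because the stretch was picked for being common in this set, the share of 18.8% is no test. It is not particular to the number range either. Zfp600 and Rex2 of the same chromosome 4 cluster and Gm13212 also have it, as do genes such as Acyp1 and Myh9. Zfp988, which has a number in the range but is not in the set, has it too. In the chromosome 4 windows compared, its first base lay 67 to 94 bases before the start. It contains the GC box GGGCGG, which was found in 35.7% of all windows. The 9 genes with the stretch included Zfp981 at 1.01 and Zfp979 at -0.63, and Zfp947 and Zfp994 at 0.01 ± 0.10 and 0.04 ± 0.07. The letters CAGAC, a short site to which Smad3 can bind, were in 26 of the 48 genes (54.2%) and in 53.2% of all genes. The palindrome GTCTAGAC was in none of the 48 and in 0.248% of all genes, and GGCGCC was in 3 of the 48 (6.25%) and in 13.4%. Such matches describe the letters in these windows only.

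Chromosome 17 holds the largest number of the genes, 13, of which 10 lie in a stretch of 24 zinc finger genes (chr17:21008941-23611019). None of the 10 was called by limma, edgeR or DESeq2, beside 15.4% of all genes by limma. By limma's adjusted p alone 3 passed, beside 53.6% of all genes, and 5 had an unadjusted p under 0.05, beside 58.1%. Of the 10, 5 had a positive and 5 a negative value, and their median log2 fold change was -0.02. Towards the end of this stretch, 5 successive zinc finger genes had negative values: Zfp944, Zfp758, Zfp946, Zfp945 and Zfp40, from -0.52 to -0.10 with a median of -0.27. The largest of these differences was that of Zfp946, with 802, 816 and 683 normalised reads in WT and 534, 540 and 519 in DKO. Zfp945 had 3455, 3523 and 3465 in WT and 2501, 2498 and 2670 in DKO (-0.45 ± 0.03), again with no overlap. Zfp944 overlapped between the groups (-0.10 ± 0.05). Just before this run, Zfp943, Zfp947 and Zfp994 had values from 0.01 to 0.13, and in each of them the groups overlapped.

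No run of 3 or more successive zinc finger genes past 1.5-fold in 1 direction was found in any of the 6 stretches that hold at least 3 genes of the set, nor with Rex2 counted or with gaps of up to 200 or 1000 kb. Runs of 1 sign, whatever the size, numbered 7. Runs count zinc finger genes by symbol and skip any other gene between them. On chromosome 8, Zfp964, Zfp869, Zfp963 and Zfp866 were all positive, from 0.12 to 0.58. Zfp963 stood at 174, 173 and 195 normalised reads in WT and 267, 275 and 266 in DKO, with no overlap, and came past the threshold when WT replicate 3 was left out (0.63). Zfp964 rested on fewer reads, with 85.4, 71.7 and 67.2 in WT and 112, 96.7 and 110.4 in DKO (0.51 ± 0.13), and came past the threshold without WT replicate 1 (0.61). Zfp930, the first zinc finger gene of that stretch, was lower in DKO (-0.17 ± 0.03). On chromosome 7, Zfp975 and Zfp936 began a run of 4 positive zinc finger genes from 0.14 to 0.32, with other genes in between. Of those skipped, EU599041, between Zfp936 and Zfp715, was at -0.07 ± 0.03 with no overlap. Zfp976 next to Zfp975 was at -0.11 ± 0.05.

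The 4 tested genes of chromosome 2 all had negative values, from -0.58 to -0.01. Zfp931 stood at 521, 544 and 502 normalised reads in WT and 370, 336 and 343 in DKO. It was called when WT replicate 3 (-0.61) or DKO replicate 1 (-0.62) was left out. Zfp970 stood at 922, 916 and 928 in WT and 718, 656 and 724 in DKO (-0.40 ± 0.05). The 4 other genes of this chromosome, Zfp965, Zfp966, Zfp967 and Zfp973, and Zfp957 on chromosome 14 were not tested, since none had more than 6 reads in any library. Their levels could not be compared at this depth.

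Outside the stretches, differences under 1.5-fold that exceeded the spread of replicates were seen in both directions. Zfp951 on chromosome 5 stood at 2691, 2767 and 2738 normalised reads in WT and 3808, 3746 and 3732 in DKO (0.46 ± 0.03). Zfp954 on chromosome 7 stood at 381, 428 and 433 in WT and 552, 546 and 556 in DKO (0.41 ± 0.06). Zfp940, on the same chromosome, was lower, with 1185, 1306 and 1306 in WT and 896, 924 and 868 in DKO (-0.50 ± 0.05). Zfp932, which is known to silence endogenous retroviruses together with its neighbour Gm15446, overlapped between the groups and differed by -0.11 ± 0.04. Gm15446 stood at 273 ± 27.0 (SD, n = 3) in WT and 213 ± 6.90 in DKO (-0.36 ± 0.08).

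Recent duplicates share sequence, and reads of 75 cycles cannot always be placed in 1 copy. Of the 53 genes with GENCODE transcripts, 23 shared over 10% of their 75-base stretches with another gene and 15 shared under 1% (median 7.35%). The stretches come from spliced transcripts, whereas the values count gene bodies, so sharing in introns was not measured. Zfp991 shared 60.8% with Znf41-ps, a pseudogene of the same cluster that was also called higher, with 876 ± 26.8 normalised reads in WT and 1441 ± 80.1 in DKO (0.72 ± 0.04). Zfp960 shared 74.7% with Zfp97, which stood at 1122 ± 5.83 in WT and 860 ± 13.3 in DKO (-0.38 ± 0.04). The values of these pairs are therefore uncertain for either copy. The same limit holds for Zfp992, which shared 30.3% with Zfp991, and for Zfp987, which shared 63.5% with Gm8935. It also holds for Zfp935 (99.2% with Gm49359) and Zfp984 (35.9% with Gm13212). Zfp963 shared 37.6% with Gm20422, which overlaps it on the same strand, so that share need not come from a separate copy. Zfp981 and Zfp979 shared 23.3% and 23.6% in all, of which 16.3% and 14.6% were with Zfp600, and Zfp982 and Zfp985 shared 4.93% and 4.36% in all. In reading frames translated from these transcripts, 52 of the 53 genes had at least 3 matches to the spacing of a C2H2 finger (median 11, at most 21 in Zfp974), and 33 matched a KRAB pattern.

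Overlapping genes set a second limit, since the use of strand in counting was not stated and was not tested. On chromosome 17, the span of 6330415G19Rik holds all of Zfp213, which lies on the other strand. In WT they stood at 25.7 ± 5.41 and 230 ± 7.73 normalised reads (SD, n = 3). Most reads of Zfp213 were thus not counted in 6330415G19Rik. Of the 49 tested genes 19 overlap another annotated gene, among them Zfp981, Zfp991, Zfp979, Zfp992 and Zfp982, which overlaps 4. The neighbours Zfp992 and Zfp981 both overlap Gm26573, which lies on the other strand from both. The neighbours Zfp991 and Zfp982 both overlap C230088H06Rik and Gm26624. These 4 genes were in 1 positive run only where both chromosome 4 stretches joined, that is, with Rex2 counted or with gaps of up to 1000 kb. How far reads of the shared genes enter both values of a pair was not tested. The gene body of Zfp981 (chr4:146502000-146539395, + strand) overlaps 3 genes, all on the other strand. Of these, 1700095A21Rik was called higher, from 6.87 ± 2.91 to 27.2 ± 1.01 normalised reads, far fewer reads than Zfp981 itself. Zfp981 has a second entry in the table, with a lower total, which gave 8142 ± 202 in WT and 16136 ± 392 in DKO (0.99 ± 0.03). Among the 30 tested genes that overlap no other, BC052688 and Zfp960 were the called ones.

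Of 24 genes for the cofactors through which KRAB zinc finger proteins silence their targets, none was called changed, beside 15.4% of all genes, and log2 fold changes ran from -0.20 to 0.55 with a median of 0.01. By limma's adjusted p alone, 16 passed (10 higher and 6 lower in DKO), or 66.7% beside 53.6% of all genes. At an unadjusted p under 0.05, 17 passed, beside 58.1% of all genes, and edgeR and DESeq2 also called none. Trim28, the co-repressor bound by the KRAB domain, stood at 50372 ± 1751 normalised reads in WT and 53663 ± 222 in DKO (0.09 ± 0.02, adjusted p = 0.0012). Setdb1, which trimethylates lysine 9 of histone H3, was lower at 7353 ± 116 against 8148 ± 86.7 (-0.15 ± 0.03, adjusted p = 1.26e-05). Dnmt1, the maintenance DNA methyltransferase, differed by 0.09 ± 0.03 (adjusted p = 0.0054), with overlapping groups. The largest difference was that of Resf1, a partner of Setdb1 in retrovirus silencing that the table lists as 2810474O19Rik. It stood at 8672 ± 120 in WT and 12707 ± 393 in DKO (0.55 ± 0.03, adjusted p = 1.16e-16), a difference under 1.5-fold, and is named here for that value.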

How the data were processed

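RNA from 6 EpiLC cultures (3 WT, 3 DKO) was depleted of ribosomal RNA, made into stranded libraries and sequenced as paired ends. The authors removed ribosomal reads with bowtie2, aligned the rest to mm10 with STAR, removed duplicates with Samtools, counted reads over refGene gene bodies and normalised with DESeq2; versions and the use of strand are not given in the sources used here. The deposited values are a signal, the read count of an entry scaled by the library's size factor. Whole reads were recovered from them for 100% of values. A further deposited table holds the authors' own comparison (means, fold changes, standard errors and p-values) and was not used. Of 33812 rows, 138 carried no symbol and held 0.517% of reads. They were left out.

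Log2(value + 1) was fitted with limma 3.58.1 (trend) in R 4.3.3 over all named rows kept by edgeR's filterByExpr, and p-values were adjusted over all of them, after which 1 row per symbol was kept. The fit on normalised values called 2619 genes. On the recovered reads, edgeR 4.0.16 called 2650 and DESeq2 1.42.0 called 2479, both including the same 5 genes of the set. The models were tested on simulated data. P-values measure the spread between differentiations of 1 line per genotype. Replicate numbers did not pair samples, as deviations of same-numbered libraries correlated at 0.0088, -0.029 and 0.036 over 11930 genes.

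The members and the gene lists were chosen with earlier results of these data known. The text names BC052688, every called gene, the 5 genes with the highest mean, the genes next to the threshold, runs of neighbours, Trim28, Setdb1, Dnmt1, Smad2 and Smad3. Other genes were named after their values were seen. Positions, promoter windows and gene types are RefSeq's (GRCm38.p6), and transcripts, strands and overlaps GENCODE M21's. A position was found for 98.9% of rows. Motifs were searched on both strands. Promoter windows of Zfp992, Zfp991, Zfp930, BC052688, Zfp934 and Zfp960 were not used here.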

Additional observations from a re-analysis of the deposited data

How the results depend on the processing

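The 5 called genes were called under edgeR, DESeq2, pseudocounts of 0.1 and 10, TMM factors, scaling by library total and no filter on low values. A replicate block also called 5 (3 higher, 2 lower) and changed no call. Leaving out 1 library in turn gave 4 to 7 called genes, 3 to 4 of them higher and 1 to 3 lower. Beyond the changes given above for Zfp960, Zfp931, Zfp963 and Zfp964, Zfp946 was called without WT replicate 3 (-0.61), and Zfp963 without DKO replicate 3 (0.59). Without a fold threshold 30 genes were called (16 higher, 14 lower) and 16 of the KRAB cofactors, beside 53.6% of all genes. Above 2-fold, 2 of the 49 were called and 0 were lower, and 1 of the 2 was BC052688, selected for its rise. Over all genes, 1182 of the 17038 tested differed by over 2-fold, whatever their p. Among the 30 tested genes that overlap no other, 2 were called, 1 higher and 1 lower, beside 15.4% of all genes, overlapping or not. A largest gap of 200 kb between neighbours left 2 stretches instead of 6. A gap of 1000 kb also gave 6, but not the same ones, since both on chromosome 4 joined and 1 on chromosome 2 was added; with Rex2 counted there were 5. None of the log2 fold changes recomputed changed sign. Over 14 alternatives the log2 fold change ran from 4.36 to 4.94 for BC052688, from 0.99 to 1.03 for Zfp981, from 0.60 to 0.68 for Zfp991 and from -0.64 to -0.61 for Zfp979. Intervals for single counts were not used, since the variance between 2 libraries of a group was 3.44 to 5.64 times that of read sampling. Genes with few reads, such as Zfp964, were resolved least.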

Other observations

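Zfp981 has 2 entries in the table, and the reads held by the larger one alone stood at 590 ± 30.2 (SD, n = 3) in WT and 1417 ± 65.8 in DKO libraries, a ratio of 2.40, beside 2.01 for the whole gene. Zfp971 on chromosome 2 also has 2 entries; the smaller stood at 123 ± 18.0 in WT and 105 ± 16.6 in DKO, and the reads held by the larger alone at 663 ± 3.06 and 676 ± 19.6. Zfp980 shared 46.6% of its 75-base stretches with Rex2, a zinc finger gene between both chromosome 4 stretches whose symbol is outside the number range, and Rex2 stood at 2937 ± 98.3 in WT and 3146 ± 130 in DKO (0.10 ± 0.03), beside 0.39 ± 0.03 for Zfp980.

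Near the chromosome 7 genes Zfp976, Zfp975 and Zfp936, the zinc finger gene Zfp819 was called lower, from 984 ± 48.0 to 526 ± 47.8 normalised reads (-0.91 ± 0.06), while the 3 genes of the number range there had values from -0.11 to 0.15. Among the KRAB cofactors, Smarcad1 (0.34 ± 0.02), Ehmt2 (0.32 ± 0.03), Atf7ip (0.22 ± 0.03) and Morc3 (0.21 ± 0.03) were higher and Chaf1b (-0.20 ± 0.03) and Cbx3 (-0.19 ± 0.04) lower in DKO, all under 1.5-fold, with no overlap between the groups.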
